A study of Mus musculus with 20 samples.

Results

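Nitric oxide, cyclic GMP and prostacyclin signalling was followed through 9 genes in the microvessels of the mouse renal cortex. The genes were Nos3, Ptgis, Npr1, Npr3, Gucy1a1, Gucy1b1, Prkg1, Pde5a and Pde3a, taken by symbol from a read count table of 34255 genes. All 9 were in the table and all 9 passed the filter on low counts in the main fits, though not in every alternative fit. The kidneys came from healthy wild-type (WT) male C57BL6/OlaHsd mice aged 8 to 12 wk with no treatment. Arterioles, glomeruli, peritubular capillaries (PTC) and post-capillary venules were cut by laser microdissection from frozen cortex, with 4 libraries each. Sections of whole kidney (WK), also 4 libraries, were the comparison group. Shape after hematoxylin staining identified arterioles, glomeruli and venules, and binding of a fluorescent lectin, isolectin B4, identified PTC. Samples are labelled as biological replicates, but no label ties a sample to a mouse, and the p-values given here cover only the spread among libraries. Per the study's methods, slides for all compartments came from each mouse. Libraries of different groups may therefore share a mouse, which the main tests did not model.

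Endothelial nitric oxide synthase makes nitric oxide, which diffuses into neighbouring smooth muscle and mesangial cells and activates soluble guanylyl cyclase. Natriuretic peptides raise the same messenger, cyclic GMP, through a receptor that is itself a guanylyl cyclase. Cyclic GMP activates a protein kinase that relaxes contractile cells, phosphodiesterases break it down, and prostacyclin relaxes the same cells through cyclic AMP. In the kidney these signals are known for setting arteriolar tone, glomerular filtration and renin release.

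Libraries held 4639090 to 12283098 counts, and the number of genes with at least 1 count was lower in microdissected libraries (11339 to 14164) than in WK libraries (18272 to 20474). Values are given as CPM, the counts of a gene per 1000000 counts on TMM-scaled totals, where 3 counts in 1 library correspond to 0.206 to 0.64 CPM. Of the 144 values of the 9 genes in microdissected libraries, 31 (21.5%) rested on 5 counts or fewer and 8 were 0, against 0 of 36 in WK. Of 7487 tested genes in the same range of WK level (2.5 to 28.7 CPM), 38.9% of microdissected values were that low. Fewer cells of a type and less RNA per cell cannot be told apart in such bulk samples. Marker lists were checked against the labels. The summed level of 12 smooth muscle markers was 23852 to 59044 CPM in arterioles and 531 to 696 CPM in WK, and 10 podocyte markers reached 8098 to 9631 CPM in glomeruli. The 16 endothelial markers summed to 4464 to 6223 CPM in arterioles, 5833 to 6955 CPM in glomeruli, 1696 to 2121 CPM in venules, 776 to 2139 CPM in PTC and 660 to 780 CPM in WK. PTC libraries also held 63699 to 118250 CPM of 10 proximal tubule markers, above WK (35544 to 36842 CPM), so tubule RNA moved with that group. In PTC 2 of the 16 endothelial markers lay above every WK library, against 15 in glomeruli, 10 in arterioles and 7 in venules. WK libraries were made without the low-input changes and with fewer PCR cycles than microdissected libraries, and this difference in preparation cannot be told apart from the comparison with WK.

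Promoter sequence is shown for 2 genes that were higher in arterioles, Prkg1 and Npr1, and for Gucy1b1, which was nearly absent from venules. Each run holds the 250 bases before a transcription start from RefSeq (GRCm38.p6), written 5′ to 3′ along the gene, and capitals mark a GC box, GGGCGG or its reverse complement CCGCCC.
Prkg1 start 1, chr19:31765034-31765283, minus strand: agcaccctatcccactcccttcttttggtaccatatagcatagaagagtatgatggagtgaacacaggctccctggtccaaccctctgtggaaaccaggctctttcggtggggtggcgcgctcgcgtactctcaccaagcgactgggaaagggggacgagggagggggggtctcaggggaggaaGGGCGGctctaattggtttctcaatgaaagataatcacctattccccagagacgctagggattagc
Prkg1 start 2, chr19:31664371-31664620, minus strand: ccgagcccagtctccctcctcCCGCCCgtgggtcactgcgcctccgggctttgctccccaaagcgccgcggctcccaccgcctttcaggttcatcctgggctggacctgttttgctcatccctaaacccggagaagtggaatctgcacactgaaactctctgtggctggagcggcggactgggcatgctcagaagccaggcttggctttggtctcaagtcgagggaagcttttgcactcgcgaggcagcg
Npr1, chr3:90465867-90466116, minus strand: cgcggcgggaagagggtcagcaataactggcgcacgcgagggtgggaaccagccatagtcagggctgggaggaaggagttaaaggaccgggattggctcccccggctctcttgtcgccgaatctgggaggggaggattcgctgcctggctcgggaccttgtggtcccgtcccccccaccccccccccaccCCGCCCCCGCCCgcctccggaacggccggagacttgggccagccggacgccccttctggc
Gucy1b1, chr3:82074712-82074961, minus strand: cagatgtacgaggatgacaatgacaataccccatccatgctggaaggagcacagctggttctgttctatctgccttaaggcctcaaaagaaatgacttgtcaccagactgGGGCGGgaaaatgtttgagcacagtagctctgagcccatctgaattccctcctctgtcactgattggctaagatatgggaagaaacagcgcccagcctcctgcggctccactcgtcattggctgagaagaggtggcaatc
RefSeq windows were at hand for 6 of the 9 genes, 8 windows in all, and Nos3, Ptgis and Pde3a were not among them. A GC box lay in 6 of the 8 windows, against 32.7% of 32851 promoters of the same length. The serum response factor element known as the CArG box, searched on both strands, was in 1.47% of all promoters, and an MCAT element (CATTCC) in 12.6%. Neither set of letters was found in these 8 windows.

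**Figure D1:**
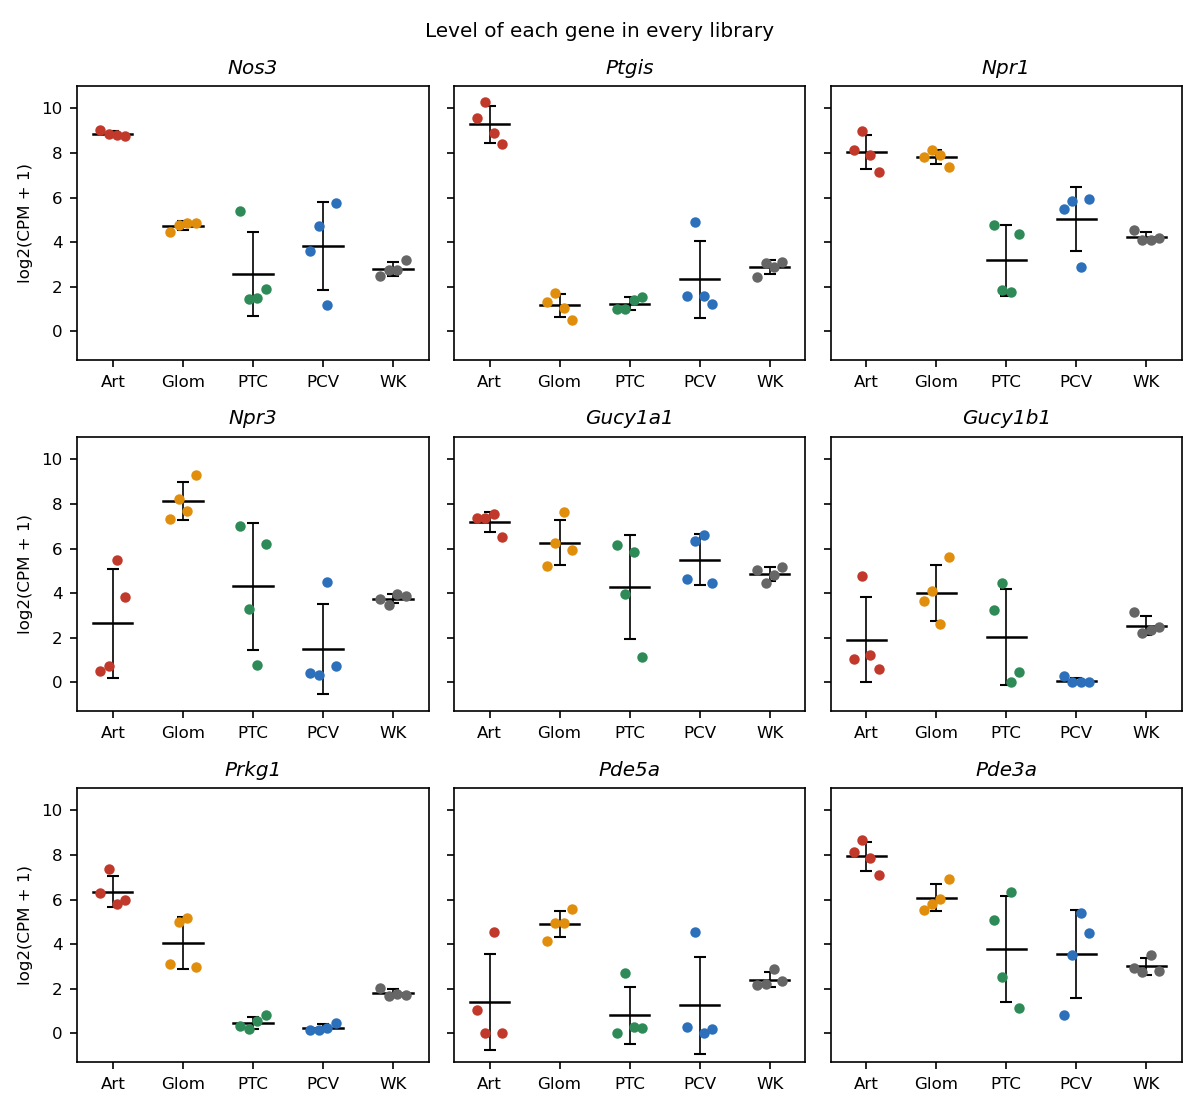
Level of each of the 9 genes in every library, as log2(CPM + 1), by group: arterioles (Art), glomeruli (Glom), peritubular capillaries (PTC), post-capillary venules (PCV) and whole kidney (WK). Points are single libraries, the long bar is the mean and the whisker 1 SD (n = 4). Nos3 and Ptgis in arterioles stand above every other library, whereas Pde5a and Npr3 scatter within arterioles, PTC and venules. Gucy1b1 scatters within arterioles and PTC and is nearly absent from venules.

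Compared with WK, 5 of the 9 genes were higher in arterioles: Nos3, Ptgis, Npr1, Prkg1 and Pde3a. The edgeR quasi-likelihood test, at an adjusted p (FDR) under 0.05 over all 13813 genes and a log2 fold change beyond 1, called 11.3% of all genes in this comparison, 5.78% as higher and 5.5% as lower. In glomeruli 2 genes were higher, the receptors Npr1 and Npr3, where 3.06% of all genes were called and 1.59% as higher. In PTC and in venules 0 of the 9 genes were called, where only 0.0941% and 0.224% of all genes were. At an unadjusted p under 0.05 the edgeR counts were 2 genes in PTC (Ptgis and Pde3a; 12.4% of all genes) and 3 in venules (Nos3, Gucy1b1 and Prkg1; 9.36%). DESeq2 called 0 in PTC, where it called 2.07% of all genes, and 2 in venules (Gucy1b1 and Prkg1, both lower), where it called 1.27%. The median log2 fold change of the 9 genes was 4.00 in arterioles, 2.79 in glomeruli, 0.33 in PTC and 0.43 in venules, against 0.22, 0.25, 0.18 and 0.19 over all genes tested. The 9 genes were chosen with earlier results of these data known, and Ptgis was an arteriole marker chosen on these samples. Counts and medians of the 9 beside those of all genes are therefore description only. The same limit holds for the later counts of these genes and of the pathway lists.

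**Figure D2:**
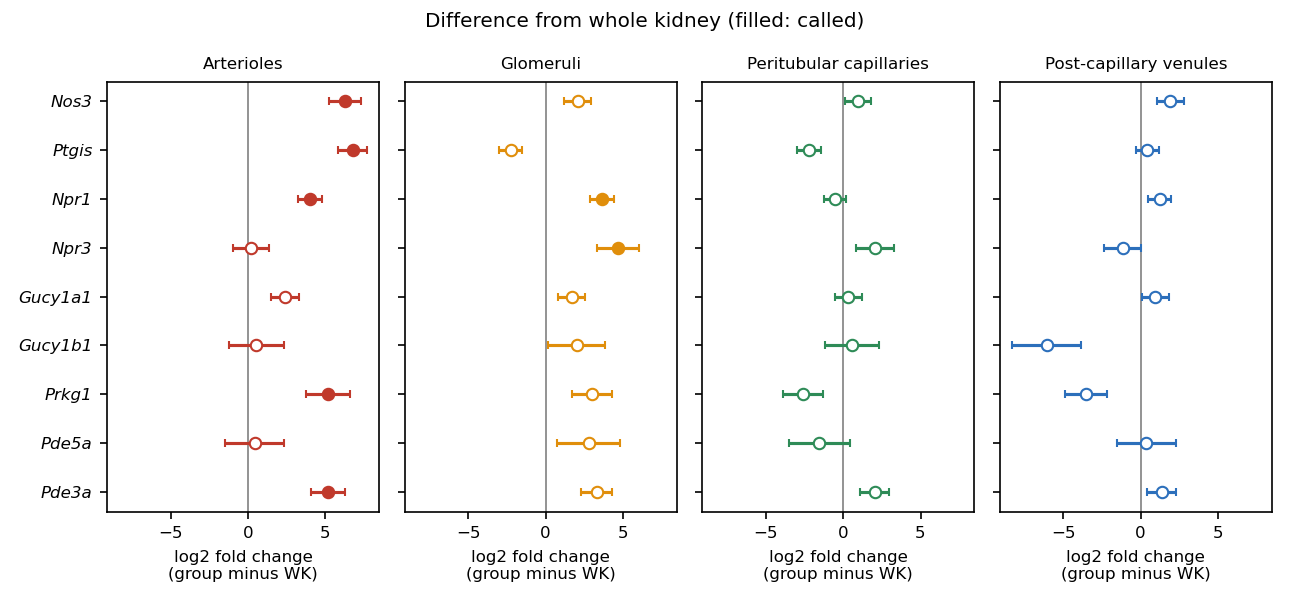
Log2 fold change of each gene against whole kidney (WK) in the 4 microdissected groups, on the horizontal axis, with its standard error; filled points passed the test. In arterioles 5 genes are filled, in glomeruli 2 (Npr1 and Npr3), and in peritubular capillaries and venules 0.

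Of the genes that make the signals, Nos3 (ENSMUSG00000028978, chr5:24364810-24384474, plus strand, GENCODE M21 on GRCm38) encodes endothelial nitric oxide synthase. Nos3 was at 526, 462, 440 and 428 CPM in the arteriole libraries numbered 93, 96, 98 and 100 (464 ± 43.8, SD, n = 4), and at 4.56, 5.64, 5.83 and 8.22 CPM in WK (6.06 ± 1.54). Every arteriole library lay above every other library, and the spread among arterioles was small. The difference from WK was 6.25 ± 1.04 (SE) on the log2 scale (edgeR FDR = 6.15e-05).

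Between compartments, tested over the 16 microdissected libraries and 12179 genes at an FDR under 0.05, Nos3 was higher in arterioles than in each of the other 3 groups. The log2 difference was 4.17 ± 1.00 from glomeruli (FDR = 0.014), 5.28 ± 1.06 from PTC (FDR = 0.000718) and 4.33 ± 1.01 from venules (FDR = 0.00776). Leaving out any 1 glomerular library ended the call against glomeruli (FDR up to 0.0585), as did scaling by total counts alone (FDR = 0.0518). Glomeruli held 20.6, 26.1, 27.8 and 28.2 CPM, above all 4 WK libraries, but the difference from WK did not pass (2.08 ± 0.87, FDR = 0.21). In PTC the level was 41.4 CPM in library 93 and 1.77 to 2.74 CPM in the others, and in venules it ran from 1.30 to 53.8 CPM, so both groups overlapped WK.

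Nos3 was also scaled to the endothelial list, as log2(CPM + 1) of Nos3 minus the mean log2(CPM + 1) of the 16 markers. Arterioles and glomeruli held similar sums of these markers, but from different genes. For example, Ehd3, Kdr and Emcn averaged 171, 58.5 and 16.7 CPM in arterioles and 2220, 1261 and 674 CPM in glomeruli. Cldn5, Tie1 and Egfl7 averaged 394, 303 and 713 CPM in arterioles and 109, 102 and 380 CPM in glomeruli. The sums therefore do not show that endothelial content was matched. The scaled value was 2.13 ± 0.28 (SD, n = 4) in arterioles, -2.89 ± 0.28 in glomeruli, -2.42 ± 1.66 in PTC and -2.27 ± 2.24 in venules. Arterioles did not overlap any other group. Each of these 3 comparisons gave p = 0.0286 in a two-sided exact permutation test, the smallest value that 4 libraries against 4 allow. Adjusted over the 54 scaled tests of all 9 genes, the p was 0.0514, and 0 of the 54 tests fell under 0.05. Groups did not overlap in 30 of the 54, a count for which no share of all genes was computed. It mixes directions and references. Scaled to smooth muscle markers, arterioles lay below glomeruli without overlap for Gucy1a1 (-3.33), Gucy1b1 (-6.35), Prkg1 (-1.975), Pde5a (-7.77) and Pde3a (-2.41). The size of the scaled Nos3 difference rested on the markers used. Pecam1, a cell adhesion gene, itself averaged 1661 CPM in arterioles and 350.0 CPM in glomeruli. Relative to Pecam1 alone, the Nos3 difference from glomeruli was 2.18 in place of 5.02 and still without overlap. The differences from PTC and venules were then 1.77 (p = 0.171, exact permutation test) and 1.61 (p = 0.2), with overlap, in place of 4.55 and 4.40. The 3′ end of Nos3 overlaps that of Atg9b on the opposite strand by 294 bases in the annotation, and Atg9b itself had 0 CPM in all arteriole libraries.

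**Figure D3:**
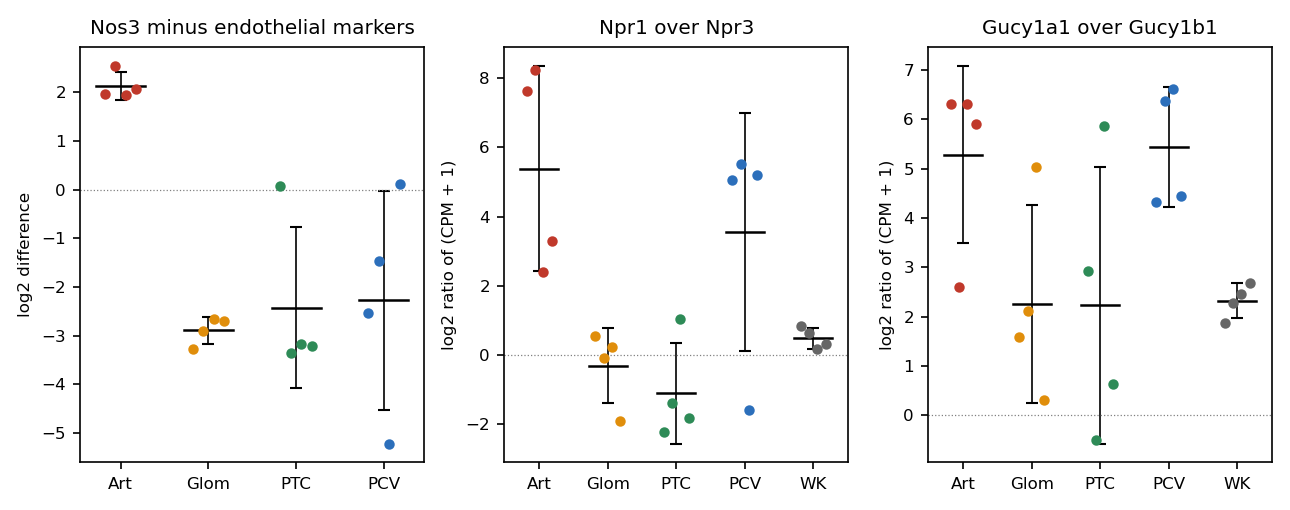
Left, Nos3 relative to 16 endothelial markers in the 4 microdissected groups, as a log2 difference; middle and right, log2 ratios of Npr1 over Npr3 and of Gucy1a1 over Gucy1b1 in all 5 groups, each from CPM + 1 (Art, arterioles; Glom, glomeruli; PTC, peritubular capillaries; PCV, post-capillary venules; WK, whole kidney). Points are libraries, bars the mean and 1 SD (n = 4); scaled Nos3 averages 2.13 in arterioles and under 0 in the other groups, and the Npr1 ratio in arterioles lies above glomeruli, PTC and WK.

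Ptgis (ENSMUSG00000017969, chr2:167191805-167240604, minus strand) encodes prostacyclin synthase. The study used Ptgis as an arteriole marker chosen on these samples, so its arteriolar level in these counts is not independent evidence. The study also lists a quantitative RT-PCR assay for Ptgis. By RT-PCR it reports enrichment in the marked compartment for the marker genes it tested, except Akr1b7. Those RT-PCR values were not used here. Ptgis was at 751, 1241, 478 and 332 CPM in arterioles (700 ± 400) and at 4.35, 7.26, 6.44 and 7.75 CPM in WK. No other library came near the arterioles, where Ptgis was higher than WK by 6.76 ± 0.92 (log2, FDR = 1.92e-06).

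Outside arterioles Ptgis was sparse. Glomeruli held 1.5, 2.32, 1.09 and 0.441 CPM (4 to 21 counts), all below WK, with a log2 difference of -2.26 ± 0.77 that did not pass (FDR = 0.0971). PTC held 0.994 to 1.96 CPM, also below every WK library (-2.20 ± 0.77, FDR = 0.27). In venules library 96 held 29.4 CPM and the others 1.34 to 2.04 CPM. Arterioles exceeded glomeruli by 9.01 ± 1.08 (FDR = 3.67e-07), PTC by 8.95 ± 1.08 (FDR = 1.62e-07) and venules by 6.32 ± 0.96 (FDR = 3.93e-05), and none of these calls was lost under any alternative. The 3′ end of the Ptgis gene overlaps 1110018N20Rik, a gene on the opposite strand, by 1004 bases in the annotation. 1110018N20Rik reached at most 0.608 CPM in any library.

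Among the receptors, the natriuretic peptide pair had their highest means in different compartments, Npr1 in arterioles and Npr3 in glomeruli. Neither gene was called between arterioles and glomeruli. Npr1 (ENSMUSG00000027931, chr3:90450591-90465866, minus strand) encodes the receptor that makes cyclic GMP in response to atrial and B-type natriuretic peptide. It was at 281, 497, 236 and 139 CPM in arterioles, at 226, 280, 237 and 164 CPM in glomeruli and at 22.3, 16.1, 16.2 and 17.2 CPM in WK. Both groups lay wholly above WK and overlapped each other. The log2 difference from WK was 4.00 ± 0.80 in arterioles (FDR = 0.000706) and 3.66 ± 0.78 in glomeruli (FDR = 0.00408), and that between arterioles and glomeruli was 0.34 ± 0.77 (FDR = 0.876).

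Npr1 was also higher in arterioles than in PTC (4.50 ± 0.89, FDR = 0.000621) and venules (2.78 ± 0.82, FDR = 0.0421), and in glomeruli than in PTC (4.15 ± 0.88, FDR = 0.00197). The call against venules was lost without arteriole library 93 or 96 or any 1 venule library (FDR up to 0.118), and with total-count scaling or a fit of the 8 libraries alone (FDR up to 0.0731). Levels were 26.3, 2.65, 2.45 and 19.6 CPM in PTC and 43.7, 56.1, 6.48 and 60.5 CPM in venules. Both groups straddled the WK level.

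Npr3 (ENSMUSG00000022206, chr15:11839896-11907287, minus strand) encodes the clearance receptor, which removes natriuretic peptides and lacks the cyclase domain. It was highest in glomeruli, at 157, 300.0, 203 and 623 CPM, against 12.2, 10.1, 14.4 and 13.8 CPM in WK. Every glomerular library was above every WK library, and the log2 difference was 4.67 ± 1.35 (FDR = 0.0463). That call was lost on leaving out any 1 of the 8 libraries compared (FDR up to 0.159), with RLE scaling and with a filter of 10 CPM (FDR up to 0.0597). Glomeruli also exceeded venules by 5.81 ± 1.5 (FDR = 0.0389), a call lost without any 1 of the 4 glomerular libraries or without venule library 93, 96 or 100 (FDR up to 0.184) and with RLE scaling (FDR = 0.0654).

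In arterioles Npr3 was split among libraries, with 0.426 and 0.644 CPM (2 and 4 counts) in libraries 93 and 96, 44.1 CPM in library 98 and 13.4 CPM in library 100. PTC ranged from 0.700 to 128 CPM, and venules held 0.243 to 0.670 CPM except for library 98 at 21.7 CPM. All 3 groups overlapped WK or each other. The log2 difference between arterioles and glomeruli was -4.45 ± 1.40 (FDR = 0.0857).

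Within a library, the log2 ratio of Npr1 over Npr3 was 7.63, 8.24, 2.40 and 3.29 in arterioles, 0.53, -0.10, 0.23 and -1.92 in glomeruli and 0.82, 0.62, 0.16 and 0.30 in WK. The ratio was higher in all 4 arteriole libraries than in any glomerular, WK or PTC library, the last reaching at most 1.02. Each of those 3 differences gave p = 0.0286 (two-sided exact permutation test, n = 4 in each group), and p = 0.143 after adjustment over the 20 ratio tests. The venule ratios were 5.06, 5.52, -1.60 and 5.20, and they overlapped those of arterioles.

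Gucy1a1 and Gucy1b1 encode the alpha 1 and beta 1 subunits of soluble guanylyl cyclase, the receptor for nitric oxide, and lie side by side on chromosome 3 (Gucy1a1, ENSMUSG00000033910, chr3:82092427-82145789; Gucy1b1, ENSMUSG00000028005, chr3:82032006-82074689; both minus strand). Gucy1a1 was at 164, 165, 185 and 91.0 CPM in arterioles and at 31.8, 21.2, 26.9 and 34.8 CPM in WK. All arteriole libraries were above WK, yet the difference of 2.40 ± 0.91 did not pass (FDR = 0.0702). Glomeruli (36.5 to 200 CPM) were also above WK without passing (1.69 ± 0.89, FDR = 0.378). Venules (20.8 to 96.5 CPM) and PTC (1.17 to 71.3 CPM) overlapped WK. None of the 6 comparisons between compartments called Gucy1a1.

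Gucy1b1 was far more uneven. Arterioles held 1.07, 26.2, 1.35 and 0.535 CPM (5, 163, 12 and 3 counts), so that library 96 carried 89.9% of the summed CPM. Glomeruli held 11.5, 16.4, 5.14 and 48.2 CPM, and WK 8.0, 3.57, 4.04 and 4.53 CPM. In PTC 2 libraries held 8.58 and 21.1 CPM and the other 2 held 0.391 and 0 CPM. Venules held 2 counts in all, both in library 93, and lay below every WK library. None of the 10 comparisons called Gucy1b1.

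From counts alone, the Gucy1b1 level in venules was 0.0134 of that in WK (95% exact interval 0.00162 to 0.0491, counting error only). Over the 4 venule libraries together, 3 counts correspond to 0.0999 CPM. The same libraries held 155 to 666 counts of Gucy1a1. The log2 ratio of Gucy1a1 over Gucy1b1 was 4.32 to 6.61 in venules and 1.87 to 2.69 in WK. These did not overlap (p = 0.0286, two-sided exact permutation test, n = 4 in each group), but the adjusted p was 0.143. In arterioles the ratio was 5.90 to 6.32 in 3 libraries and 2.60 in library 96, a little below the highest WK library.

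Prkg1 (ENSMUSG00000052920, chr19:30564489-31765033, minus strand) encodes cyclic GMP-dependent protein kinase 1, the main effector of cyclic GMP in smooth muscle. It was at 77.0, 162, 54.6 and 62.1 CPM in arterioles and at 3.14, 2.19, 2.40 and 2.27 CPM in WK. All arteriole libraries were above all WK libraries, and the log2 difference was 5.15 ± 1.43 (FDR = 0.0168). The call was lost without arteriole library 96 or any 1 WK library (FDR up to 0.0675), and with no filter on low counts (FDR = 0.0623).

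The other compartments differed in Prkg1. Glomeruli held 7.61, 31.0, 34.6 and 6.84 CPM, above WK in every library (3.00 ± 1.29, FDR = 0.23). PTC held 0.147 to 0.782 CPM and venules 0.112 to 0.402 CPM, and these rested on 1 to 4 counts per library. Both groups lay below every WK library, with log2 differences of -2.58 ± 1.30 (FDR = 0.417) and -3.52 ± 1.36 (FDR = 0.336) that did not pass.

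Between compartments, Prkg1 was higher in arterioles than in PTC (7.72 ± 1.83, FDR = 0.00427) and venules (8.65 ± 1.91, FDR = 0.00472). It was higher in glomeruli than in PTC (5.57 ± 1.67, FDR = 0.0454), a call lost on leaving out any 1 of the 8 libraries (FDR up to 0.126) and under 4 of the other fits, the replicate block among them (FDR up to 0.11). The log2 difference between arterioles and glomeruli was 2.15 ± 1.42 (FDR = 0.44). Relative to 12 smooth muscle markers, which were much higher in arterioles, scaled Prkg1 was -3.44 ± 0.44 in arterioles and -1.46 ± 1.39 in glomeruli without overlap (p = 0.0286, exact permutation test; adjusted p = 0.0514). Smooth muscle markers therefore differed more between these groups than Prkg1 did, by 1.98 on the log2 scale for the list and by 4.09 for Myh11 alone.

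The 2 phosphodiesterases were unlike each other. Pde3a (ENSMUSG00000041741, chr6:141249269-141507448, plus strand) encodes an enzyme that breaks down cyclic AMP and is inhibited by cyclic GMP. It was at 280, 410, 229 and 136 CPM in arterioles, at 46.0, 54.9, 63.4 and 121 CPM in glomeruli and at 6.68, 5.76, 10.6 and 5.86 CPM in WK. The 3 groups did not overlap. The log2 difference from WK was 5.19 ± 1.09 in arterioles (FDR = 0.00132), and in glomeruli 3.30 ± 1.00 (FDR = 0.0608), which did not pass.

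Pde3a was also higher in arterioles than in PTC (3.16 ± 1.06, FDR = 0.046) and venules (3.83 ± 1.09, FDR = 0.0352). The first call was lost without arteriole library 93, 96 or 98 or PTC library 93, 96 or 100 (FDR up to 0.109). The other was lost without arteriole library 93 or 96 or venule library 93, 96 or 100 (FDR up to 0.105), and both with total-count scaling (FDR = 0.0702 against PTC and 0.0716 against venules). The call against PTC was also lost in a fit of the 8 libraries alone (FDR = 0.0869). PTC ranged from 1.17 to 79.1 CPM and venules from 0.784 to 40.8 CPM, so both overlapped WK.

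Pde5a (ENSMUSG00000053965, chr3:122728947-122859374, plus strand) encodes the cyclic GMP-specific phosphodiesterase that sildenafil inhibits. In glomeruli it was at 16.6, 30.3, 29.8 and 46.0 CPM, above all WK libraries (3.54, 3.57, 6.44 and 4.16 CPM), but the log2 difference of 2.79 ± 2.04 did not pass (FDR = 0.649). In arterioles library 98 held 202 counts (22.7 CPM), library 93 held 5, and libraries 96 and 100 held 0. PTC and venules had the same form, with 38 of 41 counts in PTC library 96 and 183 of 186 counts in venule library 96. Outside glomeruli and WK, then, 1 library carried 92.9% to 98.4% of the summed CPM of its group. None of the 10 comparisons called Pde5a.

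Counted by overlap alone, 6 of the 9 genes lay above WK in every arteriole library, against 8.45% of all genes tested. The 9 genes were not chosen blind to these data, so such shares are given for description only. In glomeruli 7 lay above, against 14.6%, and Ptgis lay below, against 18% of genes. In PTC and venules 0 of the 9 lay above, against 6.08% and 5.81% of all genes, shares at which fewer than 1 of 9 genes would. Prkg1 and Ptgis were below every WK library in PTC, and Prkg1 and Gucy1b1 in venules, against 18.3% and 14.4% of genes. By mean CPM, Nos3, Ptgis, Gucy1a1, Npr1, Prkg1 and Pde3a were highest in arterioles, and Gucy1b1, Npr3 and Pde5a in glomeruli. The group with the highest mean did not overlap the next for Nos3, Ptgis, Prkg1, Pde3a and Npr3, and overlapped it for Npr1, Gucy1a1, Gucy1b1 and Pde5a. Further down these orders, neighbours that did not overlap were glomeruli and venules for Npr1, glomeruli and WK and WK and PTC for Prkg1, WK and PTC for Ptgis, and WK and venules for Gucy1b1.

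Between compartments, counts of called genes followed the arterioles. All members called in arterioles were higher there: 2 of 9 against glomeruli (2.19% of all genes were called, 1.33% as higher), 5 against PTC (11.2% and 6.22%) and 5 against venules (4.38% and 2.5%). Members called in glomeruli were also higher there, 2 against PTC (4.49% of all genes were called, 2.2% as higher) and 1 against venules (1.22% and 0.493%). PTC and venules differed in 0 (0.411%). At an unadjusted p under 0.05 that last comparison had 4 genes (Ptgis, Gucy1b1, Npr1 and Npr3), against 11.2% of all genes, and DESeq2 called 1 of them, Gucy1b1, against 4.83% of all genes.

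Levels across the 20 libraries were most alike for Nos3 and Npr1 among the 9 genes (Pearson r = 0.82 on log2(CPM + 1)), followed by Prkg1 and Npr1 (r = 0.81) and Gucy1a1 and Pde3a (r = 0.80). The 2 cyclase subunits had r = 0.11. These 20 points share 5 groups, so the values describe group differences as much as single libraries. Over all genes with at least 10 CPM in 1 group, the closest to Nos3 were Iqgap1 (r = 0.93), Actn1 and Pck2, and those closest to Ptgis were Serpinf1 (r = 0.96), Pi15 and Optc. Npr1 was closest to Sema3g (r = 0.93), Itga8 and Calm2, and Prkg1 to Hspa12b, P2rx1 and Apba1 (r = 0.94 each). Pde3a was closest to Ankrd50 (r = 0.90), Ccm2l and Pitpna, and Gucy1a1 to Lbh (r = 0.89), Fam172a and Aopep. The genes closest to the sparse members were Plk2 for Gucy1b1 (r = 0.91), Spred2 for Npr3 (r = 0.82) and Prickle2 for Pde5a (r = 0.94).

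The wider pathway held 70 further genes in the table, in 6 lists, of which 60 were tested against WK. In arterioles 10 were higher and 6 lower, together 26.7% against 11.3% of all genes, and 10 in all without WK library 93. Among cyclic GMP effectors 7 of 9 tested were higher and 0 lower, with a median log2 difference of 5.31 against 0.22 over all genes. The other lists had 1 to 3 called genes each. Nitric oxide supply had 1 higher and 2 lower of 12 tested (25%), and other phosphodiesterases 1 and 1 of 16 (12.5%). Prostanoid synthesis had 0 higher and 2 lower of 9 (22.2%), prostanoid receptors and transport 1 and 0 of 8 (12.5%), and guanylyl cyclases with natriuretic peptides 0 and 1 of 6 (16.7%). The shares of 12.5% were close to the 11.3% of all genes.

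**Figure D4:**
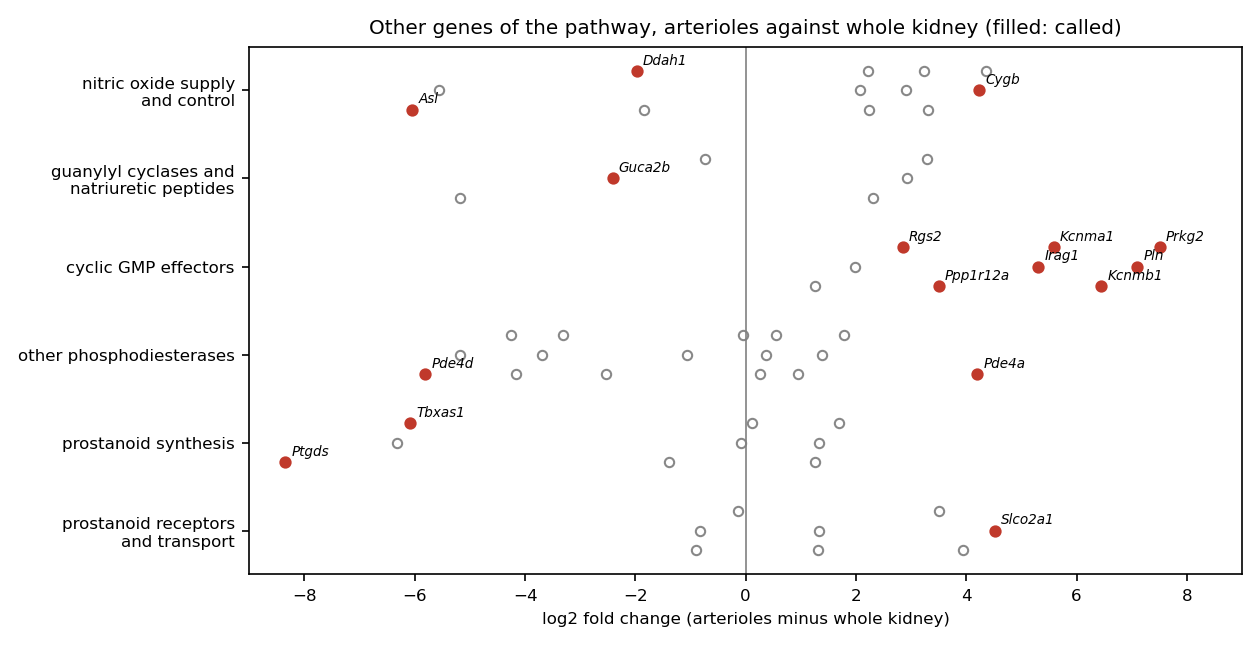
Log2 fold change of the tested pathway genes in arterioles against whole kidney, by list; each point is a gene, and filled, named points passed the test. The 7 filled cyclic GMP effectors all lie above 2, whereas prostanoid synthesis has 2 filled points, both below 0, and the other lists have filled points on both sides of 0 or only 1.

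Of the effectors, Ppp1r12a, the myosin-targeting subunit of myosin phosphatase, had 624 to 1423 CPM in arterioles and 65.7 to 108 CPM in WK (3.50 ± 0.50, FDR = 4.22e-06). Prkg2, a membrane-bound kinase related to Prkg1, had 99.0 to 578 CPM against 1.01 to 2.27 CPM (7.50 ± 1.42, FDR = 0.000377). Pln, phospholamban, which restrains the calcium pump of the sarcoplasmic reticulum, had 38.6 to 593 CPM against 1.73 to 3.14 CPM (7.10 ± 1.38, FDR = 0.000537). None of these overlapped WK.

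Rgs2, which shortens signalling by Gq-coupled vasoconstrictor receptors, was higher in both arterioles (264 to 386 CPM) and glomeruli (257 to 565 CPM) than in WK (28.7 to 62.7 CPM), by 2.85 ± 0.74 (FDR = 0.0102) and 3.07 ± 0.75 (FDR = 0.0126). Irag1, a substrate of Prkg1 at the calcium store (5.31 ± 1.22, FDR = 0.00336), and the calcium-activated potassium channel subunits Kcnma1 (5.58 ± 1.68, FDR = 0.027) and Kcnmb1 (6.45 ± 1.93, FDR = 0.0271) were the other 3 called in arterioles, and these 3 were named after their values were seen. Kcnma1 was at 0.357 CPM in 1 arteriole library and up to 181 CPM in the others. The same effectors moved with the smooth muscle markers, and the part of smooth muscle content in their level was not tested.

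On the supply side, Cygb, a globin that consumes nitric oxide, was higher in arterioles (275 to 647 CPM; 4.24 ± 0.69, FDR = 4.25e-05) and was the 1 pathway gene called in venules (250 to 401 CPM; 3.56 ± 0.67, FDR = 0.00463), against 18.7 to 37.1 CPM in WK. Without WK library 93 or 98, 0 pathway genes were called in venules. Ddah1, which degrades an inhibitor of nitric oxide synthase, was lower in arterioles (7.24 to 240 CPM against 426 to 573 CPM; -1.98 ± 0.53, FDR = 0.0133). Asl, an enzyme of arginine synthesis, was also lower (0.213 to 1.93 CPM against 40.1 to 66.3 CPM; -6.05 ± 1.38, FDR = 0.0032). Proximal tubule markers were lower too in arterioles (8780 to 16024 CPM) than in WK, and their part in the last 2 results was not tested. Cav1, the caveolar protein that binds and restrains Nos3, was called between compartments, higher in arterioles than in PTC (4.49 ± 1.31, FDR = 0.022).

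On the prostanoid side, Slco2a1, the transporter that takes up prostaglandins, was higher in arterioles (347 to 626 CPM; 4.52 ± 0.82, FDR = 0.000218) and glomeruli (180 to 397 CPM; 3.68 ± 0.79, FDR = 0.00408) than in WK (17.2 to 20.7 CPM). Tbxas1, thromboxane synthase, was lower in arterioles (0 to 0.322 CPM against 9.68 to 11.7 CPM; -6.08 ± 2.05, FDR = 0.0475). Ptgds, prostaglandin D2 synthase, had 0 counts in all 4 arteriole libraries and 3.14 to 7.95 CPM in WK, and was called lower (FDR = 0.0467). These 2 synthases were named because they were called, so their shared direction does not describe the rest of the prostanoid synthesis list. No other gene of that list was called in arterioles against WK.

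Of the remaining lists, Pde4d was lower in arterioles (0 to 1.28 CPM against 23.4 to 30.1 CPM; -5.81 ± 1.44, FDR = 0.0071) and Pde4a higher (4.2 ± 1.33, FDR = 0.0366), both enzymes specific for cyclic AMP. Pde4a was at 0.426 CPM in 1 arteriole library and up to 253 CPM in the others. Guca2b, uroguanylin, was lower in arterioles (-2.41 ± 0.55, FDR = 0.00322) and glomeruli (-2.35 ± 0.55, FDR = 0.00954). Gucy2c, its receptor, Nppc, C-type natriuretic peptide, and Ptgdr, a prostaglandin D2 receptor, had no count in any library. Guca2b and Pde4d averaged 989 and 64.2 CPM in PTC and 647 and 27.4 CPM in WK. The part of tubule RNA in the lower Guca2b and Pde4d results was not tested.

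In the other comparisons with WK, 3 of 60 pathway genes were called in glomeruli (5% against 3.06% of all genes, and 1 gene without glomerular library 100), 0 in PTC (0.0941%) and 1 in venules (0.224%). At an unadjusted p under 0.05 the edgeR fit had 6 in PTC (12.4% of all genes), and DESeq2 called 2 there (2.07% of all genes). Between compartments, with 54 genes tested, 6 were higher and 0 lower in arterioles than in glomeruli, of which 5 were cyclic GMP effectors. Over all genes 2.19% were called there, 1.33% as higher. The count of 6 was 2 with total-count scaling, 3 without arteriole library 96 and 1 or 2 without any 1 glomerular library. Against PTC 10 were higher and 5 lower (6.22% and 4.98% of all genes). Against venules 6 were higher and 6 lower (2.5% and 1.87%), together 4 to 7 without arteriole library 93 or any 1 venule library. Glomeruli differed from PTC in 3 (5.56%, against 4.49% of all genes) and from venules in 1 (1.85%, against 1.22%), shares close to those of all genes. PTC differed from venules in 0, where the unadjusted count was 6 (11.2% of all genes) and DESeq2 called 4 (4.83% of all genes).

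Markers of other cell types were measured beside these results. In arterioles the 9 fibroblast and adventitia markers summed to 2633 to 5721 CPM (WK 388 to 402 CPM), and 10 mesangial and pericyte markers to 5112 to 10372 CPM (WK 146 to 171 CPM). The 2 renin cell markers, Ren1 and Akr1b7, summed to 2.92 to 25.9 CPM in arterioles, 702 to 1650 CPM in glomeruli and 46.6 to 51.1 CPM in WK, and both were lower in every arteriole library than in any WK library. Erythrocyte markers were above WK (2014 to 4058 CPM) in arterioles (10571 to 76555 CPM), glomeruli (10527 to 13137 CPM) and venules (17009 to 51144 CPM). The part of these cells in the levels of the 9 genes was not tested.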

How the data were processed

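Samples were 20 libraries, 4 from each of 5 groups, made with a 3′ mRNA kit (QuantSeq FWD), which counts a transcript near its 3′ end, so CPM is not divided by length. The authors deposited raw read counts per gene with no normalization. Per the study's methods, reads were trimmed with bbduk, aligned with STAR to GRCm38.p6 and counted with htseq-count. The processing notes list STAR 2.7, HTSeq 0.13, featureCounts, GRCm38.p6 and GRCm39 without roles. The counting's strand setting and the annotation release were not given in the sources used here. Reads of genes that overlap on opposite strands may therefore be mixed.

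Columns were assigned to groups by name, 148 further columns of the table were not used, and no 2 used columns were identical. The numbers 93, 96, 98 and 100 name libraries only. Counts were fitted in R 4.3.3 with edgeR 4.0.16 (TMM, filterByExpr and the older form of its quasi-likelihood F test), with 20 libraries and 13813 genes against WK and 16 libraries and 12179 genes between compartments. FDR is the Benjamini-Hochberg value over all genes tested. A gene was called at FDR under 0.05, and against WK also a log2 fold change beyond 1. Scaled values and ratios used a pseudocount of 1 CPM and two-sided exact permutation tests (scipy 1.17.1). Scripts were tested on simulated data.

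The 9 genes were all reported. From each pathway list up to 4 called genes with the smallest p were named, with genes lacking any count, and per member the 3 genes of highest Pearson r, passing over predicted genes and pseudogenes. The endothelial list scaled Nos3, Ptgis, Npr1 and Npr3, and the smooth muscle list the other 5. Members and lists were chosen with earlier results of these data known. Alternatives were DESeq2 1.42.0, the edgeR 4 form, RLE and total-count scaling, 3 other filters, a replicate block, fits of 8 libraries, single reference genes, pseudocounts of 0.5 and 5 CPM, and leaving out each library.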

Additional observations from a re-analysis of the deposited data

Results flagged for a closer look

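Of the 45 combinations of gene and group, 8 had 1 library far from the other 3 by Dixon's test for groups of 4 at the 95% level. For normally distributed values chance alone flags about 1 group in 20. The rate for sparse counts such as these was not tested, so 8 of 45 is not read as an excess. None was in glomeruli or WK. In arterioles, Gucy1b1 was at 26.2 CPM in library 96 and at 0.535 to 1.35 CPM in the others, and Pde5a was at 22.7 CPM in library 98 and at 0 to 1.07 CPM in the others. In PTC, Nos3 was at 41.4 CPM in library 93 against 1.77 to 2.74 CPM, and Pde5a at 5.60 CPM in library 96 against 0 to 0.233 CPM. In venules, library 96 stood apart for Ptgis (29.4 CPM against 1.34 to 2.04 CPM) and Pde5a (22.2 CPM against 0 to 0.224 CPM), and library 98 for Npr3 (21.7 CPM against 0.243 to 0.670 CPM). Gucy1b1 in venules was at 0.224 CPM in library 93, which is 2 counts, and at 0 in the others. In each of the 8 the stray library was the high one.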

How the results depend on the processing

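Of the 22 calls of the 9 genes, 14 remained under every alternative fit, and 14 when any 1 library was left out, with the same 8 lost in either way. No called gene changed direction. Those 8 were Nos3 in arterioles against glomeruli, Npr1 against venules, Pde3a against PTC and venules, Prkg1 in arterioles against WK and in glomeruli against PTC, and Npr3 in glomeruli against WK and venules. The cause was not tested. Gucy1b1, Pde5a, Npr3 and Prkg1 rested on 5 counts or fewer in many microdissected libraries, although the totals of these libraries overlapped those of WK, and the cause of the low counts was not tested.

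For genes called in each comparison, DESeq2 gave 4 of the 9 in glomeruli and 2 in venules against WK, 4 between arterioles and glomeruli, 5 between glomeruli and venules and 1 between PTC and venules. Of the other pathway genes it gave 25, 9, 2 and 4 against WK (arterioles, glomeruli, PTC, venules), and 13 (arterioles and glomeruli), 23 (arterioles and PTC), 11 (glomeruli and PTC), 5 (glomeruli and venules) and 4 (PTC and venules). The edgeR 4 form gave 10 pathway genes in glomeruli against WK, 9 against PTC and 4 against venules, and 2 members in the last. RLE gave 1 member in glomeruli against WK and 0 members and 0 pathway genes against venules. Total counts gave 1 member and 2 pathway genes between arterioles and glomeruli (2.34% of all genes). They gave 3 members between arterioles and venules (4.16%), 5 pathway genes between glomeruli and PTC (4.75%) and 2 members between glomeruli and venules (1.31%). Without a filter there was 1 member between glomeruli and PTC, and 2 members and 2 pathway genes between glomeruli and venules; with 10 CPM, 1 member in glomeruli against WK and 2 against venules. Independent filtering gave 4 members in glomeruli against WK, 5 pathway genes against PTC, 3 and 3 against venules, and 1 and 1 between PTC and venules. Fits of 8 libraries gave 7 members in glomeruli, 1 in PTC and 2 in venules against WK, with 21, 4 and 5 pathway genes, 3 pathway genes between arterioles and venules, 1 member and 8 pathway genes between glomeruli and PTC, and 3 and 6 between glomeruli and venules. The share of all genes called moved as well. In the 8-library fits against WK it was 21.7% in glomeruli, 10.9% in PTC and 8.38% in venules. With all libraries it was 3.06%, 0.0941% and 0.224%. Between compartments, fits of 8 libraries called 2.88% (arterioles and venules), 10.4% (glomeruli and PTC) and 5.75% (glomeruli and venules). RLE called 2.89% in glomeruli against WK and 0.788% between glomeruli and venules, and the 10 CPM filter 4.28% and 1.55%. Without a filter the shares were 2.84% between glomeruli and PTC and 0.945% between glomeruli and venules. With DESeq2 the share against WK was 25.9% in arterioles, 6.33% in glomeruli, 2.07% in PTC and 1.27% in venules. Between compartments DESeq2 called 14.2% (arterioles and glomeruli), 25.7% (arterioles and PTC), 12.6% (glomeruli and PTC), 5.21% (glomeruli and venules) and 4.83% (PTC and venules). The edgeR 4 form called 8.01% in glomeruli against WK, 9.44% between glomeruli and PTC and 2.96% between glomeruli and venules. Independent filtering called 4.01%, 5.4% and 2.23% in the same comparisons, and 0.87% between PTC and venules.

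With the replicate block, members called were 4 in glomeruli against WK (3.44% of all genes) and 1 between glomeruli and PTC (4.56%). No other count moved beyond 1.5 times. No label says what the library numbers mark, and they were not used as pairs. Deviations of same-numbered libraries correlated at -0.053 to 0.071 over 40 pairs, none above 0.1. The median r was 0.0085 for these pairs and -0.003 for pairs with different numbers. Even so, 12 of 20 libraries correlated best with a library of their own number, a hint of pairing. The weak correlations do not show that pairing is absent. Per the study's methods, slides for all compartments came from each mouse, so libraries of different groups may share a mouse. The main fits left any such pairing out. The block reversed uncalled values: against WK to -0.87 (Gucy1b1), -1.24 (Npr3) and -0.35 (Pde5a) in arterioles, -0.12 (Gucy1a1) and -1.02 (Gucy1b1) in PTC and -0.46 (Ptgis) and -2.56 (Pde5a) in venules, and to 0.50 for Gucy1b1 between arterioles and PTC, which DESeq2 and RLE both put at 0.45. Scaling by total counts moved the median log2 difference of all genes from 0.223 to -0.323 in arterioles against WK, where 27.7% of calls were then higher in place of 51.2%, and from 0.272 to -0.413 between arterioles and glomeruli. It reversed Gucy1b1 (-0.50) and Npr3 (-0.07) in arterioles and Gucy1a1 (-0.04) in PTC against WK, Npr1 between arterioles and glomeruli (-0.45) and Ptgis between glomeruli and PTC (0.57), all uncalled. Relative to Pecam1 alone, scaled Npr1 between arterioles and venules was -0.42 in place of 2.37. Of 54 scaled tests 26 to 31 did not overlap under the alternatives, and of 20 ratios 4 or 5. Of the 27 most similar genes, 22 were also found with the 16 microdissected libraries.

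Leaving out 1 library gave 10 to 15 pathway genes in arterioles, 1 to 3 in glomeruli and 0 to 1 in venules against WK, 1 to 6 between arterioles and glomeruli, 4 to 8 between arterioles and venules and 0 to 1 between glomeruli and venules. Members called were 1 in glomeruli against WK in each case, 1 to 3 between arterioles and glomeruli, 3 to 5 between arterioles and venules, 1 to 2 between glomeruli and PTC, and 0 to 1 between venules and glomeruli or PTC. Uncalled log2 differences that changed sign ranged, against WK, from -2.34 to 0.92 (Gucy1b1), -1.39 to 0.61 (Npr3) and -3.63 to 0.83 (Pde5a) in arterioles, -1.52 to 1.34 (Nos3), -0.24 to 0.73 (Gucy1a1) and -0.75 to 0.99 (Gucy1b1) in PTC, and -1.84 to 0.79 (Ptgis) and -5.00 to 0.77 (Pde5a) in venules. Between compartments they ranged from 0.00 to 0.58 (Npr1, arterioles and glomeruli), -2.93 to 1.28 (Gucy1b1) and -2.07 to 5.24 (Pde5a) between arterioles and PTC, -0.24 to 5.09 (Npr3) and -3.97 to 5.40 (Pde5a) between arterioles and venules, -0.45 to 0.22 (Ptgis, glomeruli and PTC), -0.24 to 1.00 (Nos3, glomeruli and venules), and -5.18 to 3.44 (Pde5a) and -0.50 to 1.40 (Pde3a) between PTC and venules.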
